A study of Mus musculus with 96 samples.

Results

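The olfactory and vomeronasal receptor genes were examined across ChIP-seq of 3 chromatin targets in sorted mouse hippocampal nuclei. A peak was taken as a receptor peak where the annotated gene symbol began with Olfr, Vmn1r or Vmn2r, or with Or followed by a digit, which is the newer form of the Olfr names. By this rule 223 of the 22815 peaks in 6 tables belonged to receptors, 120 to olfactory receptors, 87 to the Vmn1r family and 16 to the Vmn2r family. They named 92 genes, of which 60 were olfactory receptors, 20 Vmn1r and 12 Vmn2r. The GENCODE annotation held 1972 receptor genes and pseudogenes of these families.

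The antibodies were directed against H3K4me3, H3K27me3 and Suz12, and each was used on NeuN+ nuclei, which are neuronal, and on NeuN- nuclei, which are mostly glial. All nuclei came from hippocampi of C57BL/6N male mice aged 6 months, with hippocampi of several animals of 1 genotype pooled for a sample. The genotypes were WT, which is wild type, each single knockout (Mutyh-/- or Ogg1-/-), and DKO, in which both DNA glycosylases are missing from every cell. All 4 were of the same strain. Each table held 3 libraries per genotype and thus 12 libraries. Ogg1 excises oxidised guanine from DNA and Mutyh removes adenine placed opposite to it, and the comparison of genotypes asks whether their loss alters these chromatin marks. A value is a normalised read count, the reads in a peak of 401 bases divided by 1 factor for the library. Between 6652 and 548706 reads fell in the peaks of a library, and in H3K27me3 NeuN+, the table with most receptor peaks, between 23794 and 52344. ChIP of these targets does not show the deletion itself, so the genotype labels were not checked. The study describes its replicates as independent, each a pool of animals, while the labels only number them. The p-values rest on the spread between these pools, estimated in part from other peaks of similar level and not from each peak alone.

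Olfactory receptors detect odorants in the nose and vomeronasal receptors detect pheromones in the vomeronasal organ. Both are G protein-coupled receptors, encoded by large gene families that lie in tandem clusters and are kept silent nearly everywhere outside the sensory epithelia. In the olfactory neuron that transcribes a chosen receptor the other receptors are packed into constitutive heterochromatin, marked by H3K9me3 rather than by H3K27me3. H3K27me3 is placed by polycomb repressive complex 2 (PRC2), of which Suz12 is a core subunit, most strongly at CpG-rich promoters of silent developmental genes. H3K4me3 marks promoters that are open or active.

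The sequences below show what kind of DNA lay under these peaks (middle part of each peak, plus strand, GRCm38). Capitals mark every CpG dinucleotide, the base pair step at which PRC2 targets are usually rich. The first 3 are H3K27me3 NeuN+ peaks within 1 kb of a receptor start, the fourth is an H3K27me3 NeuN+ peak called against WT by an unadjusted rule only, and the last is an H3K4me3 NeuN+ peak inside a receptor cluster.
Or1ab2 (chr8:72106232-72106431): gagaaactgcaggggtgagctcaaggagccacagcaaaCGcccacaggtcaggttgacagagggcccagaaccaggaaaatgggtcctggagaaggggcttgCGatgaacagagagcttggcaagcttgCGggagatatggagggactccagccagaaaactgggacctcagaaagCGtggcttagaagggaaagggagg
Or3a1b (chr11:74120301-74120500): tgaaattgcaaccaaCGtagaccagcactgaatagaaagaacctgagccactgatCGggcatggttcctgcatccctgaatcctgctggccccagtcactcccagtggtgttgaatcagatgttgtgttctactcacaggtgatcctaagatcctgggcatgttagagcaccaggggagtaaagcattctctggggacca
Vmn2r123 (chr4:156332004-156332203): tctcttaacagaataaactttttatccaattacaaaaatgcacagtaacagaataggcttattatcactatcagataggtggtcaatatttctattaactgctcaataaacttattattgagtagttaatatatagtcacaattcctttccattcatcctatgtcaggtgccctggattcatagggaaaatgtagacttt
Or12d2 (chr17:37318375-37318574): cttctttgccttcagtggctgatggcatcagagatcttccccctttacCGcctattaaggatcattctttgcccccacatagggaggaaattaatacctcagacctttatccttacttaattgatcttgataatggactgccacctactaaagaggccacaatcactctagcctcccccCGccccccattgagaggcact
Or55b10 (chr7:102512964-102513163): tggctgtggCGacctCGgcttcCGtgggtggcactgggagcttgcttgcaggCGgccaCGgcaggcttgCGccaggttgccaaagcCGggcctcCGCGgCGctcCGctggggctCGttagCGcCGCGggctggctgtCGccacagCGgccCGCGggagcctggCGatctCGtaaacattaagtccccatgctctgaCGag
The Vmn2r123 stretch held 0 CpG and the other H3K27me3 stretches held 2 to 4, whereas the H3K4me3 stretch near Or55b10 held 22.

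The receptor peaks were spread very unevenly over the tables. H3K27me3 NeuN+ held 113 of them among its 4132 peaks (2.73%) and named 83 of the 92 genes, while all other tables together named 16. H3K4me3 NeuN+ held 28 of 12628 (0.222%), H3K4me3 NeuN- 21 of 3270 (0.642%) and H3K27me3 NeuN- 11 of 1698 (0.648%). In Suz12 NeuN+ 24 of 775 peaks (3.10%) and in Suz12 NeuN- 26 of 312 (8.33%) carried a receptor name. Overlapping peaks of the 6 tables merged into 166 positions, of which 140 were called in 1 table alone.

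**Figure D1:**
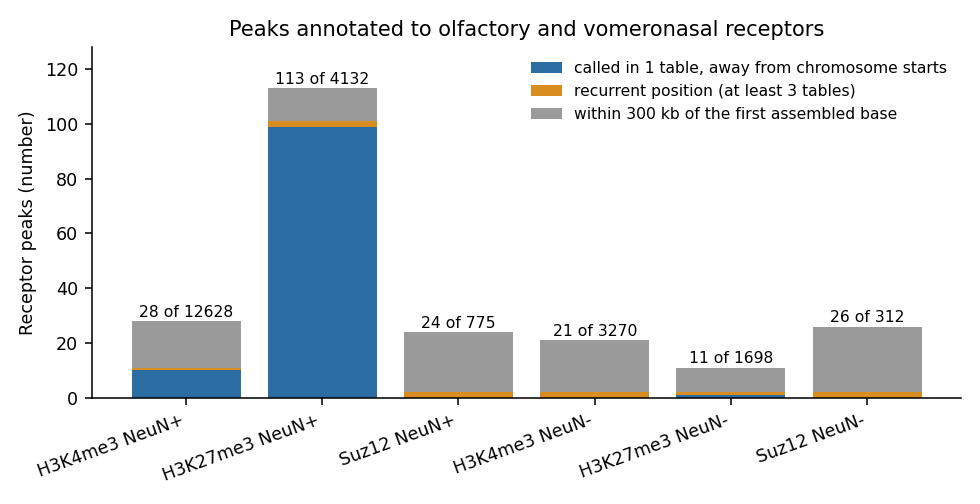
Number of receptor peaks in each of the 6 tables, with the number of all peaks of the table beside it. Bars are split by position: blue for peaks away from chromosome starts and called in 1 table, orange for 2 positions called in at least 3 tables, and grey for peaks within 300 kb of the first assembled base of a chromosome. Of the 113 peaks of H3K27me3 NeuN+ 99 are blue, whereas grey makes up 22 of the 24 peaks of Suz12 NeuN+.

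Sorted by position, the peaks fell into 3 classes. The first, 110 peaks that lay away from chromosome starts at positions called in fewer than 3 tables (all of them in 1), is referred to as cluster peaks, and 99 of them were H3K27me3 NeuN+, 10 H3K4me3 NeuN+ and 1 H3K27me3 NeuN-. The second was made up of 2 recurrent positions near Vmn1r77 and Vmn2r117, which gave 10 peaks in 3 or more tables each. The third, 103 peaks at 54 positions, lay within 300 kb of the first assembled base of chromosome 4, 16 or 18. The annotation of the study named these peaks after Vmn1r2, Vmn1r3, Or1f19 or Vmn1r238, which need not be the nearest gene. The nearest GENCODE gene start of any kind lay at a median of 9836 bases in H3K4me3 NeuN+ and 11089.5 bases in Suz12 NeuN-. In Suz12 NeuN+, H3K4me3 NeuN- and Suz12 NeuN- every receptor peak was recurrent or lay at a chromosome start. No Suz12 peak of either fraction was therefore a cluster peak.

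The 113 H3K27me3 receptor peaks of neurons lay mostly outside promoters, and most of the 99 cluster peaks lay inside a receptor cluster. The latter follows largely from choosing peaks by the name of the annotated gene. Of the 113, 66 were annotated as distal intergenic, 20 as promoter, 16 as intron, 4 each as 5′ and 3′ untranslated region, 2 as exon and 1 as downstream. Those within 1 kb of a receptor start numbered 12, and 65 lay within 10 kb. Of the 99 cluster peaks 93 lay within the span of a receptor cluster, and 71 had more than 10 receptor genes within 500 kb, with a median of 22.

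The peaks nearest to receptor starts had few reads, like the table as a whole. Over the 12 libraries the mean normalised read count was 7.05 at Or1ab2 (chr8:72106132-72106532), 5.86 at Or3a1b, 5.58 at Vmn2r123, 4.53 at Vmn1r85, 4.30 at Vmn1r235 and 2.42 at Or2ag2, the lowest of the 12. At Or1ab2 the values were 17.5, 3.32 and 4.31 in WT, 6.09, 5.53 and 18.0 in Mutyh-/-, 3.96, 6.27 and 14.4 in Ogg1-/- and 4.37, 0 and 0.802 in DKO. All 4 genotypes overlapped there, and 1 WT and 1 Mutyh-/- library stood well above the rest. Over the 99 cluster peaks the mean value ran from 1.31 at Or1e35 to 11.1 at Or2y7 (chr11:52169260-52169660), with a median of 4.44 against 5.03 for the 4019 peaks of the table without a receptor name. The median cluster peak had 4 reads per library, and 15 of the 99 (15.2%) had a read in all 12 libraries against 22.4% of the other peaks.

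The H3K27me3 peaks were concentrated in some clusters and missing from others. Receptor genes linked at distances of up to 1 Mb formed 34 clusters of at least 10 genes, which together held 1826 genes. Of these clusters 14, with 799 genes, had no H3K27me3 peak in NeuN+ nuclei, and 8 had no peak of any table. Olfactory and vomeronasal clusters were found both among those with and among those without a peak. The cluster with most genes, 287 olfactory receptor genes at chr2:85330779-90403897, held no peak of the mark, nor did the 123 genes at chr9:37708964-40190134, the 59 at chr7:84810387-87044941 and the 46 at chr2:111230360-112167997.

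In contrast, 44 olfactory receptor genes at chr11:73350783-74366218 were covered by 12 H3K27me3 peaks, all with a receptor name. They were annotated to the Or1e genes (Or1e1f, Or1e23, Or1e29, Or1e31, Or1e32 and Or1e35), to Or3a10, Or3a1b and Or3a1c, and to Or1a1b. The 60 vomeronasal genes at chr17:17703747-21323766 had 14 peaks, 10 of them receptor peaks of Vmn1r232, of Vmn1r234 to Vmn1r237 and of Vmn2r90. The 37 genes at chr2:36285023-37332772 had 9 peaks and the 49 at chr9:18751507-20336094 had 9, of which 8 carried Or7e or Or7g names. The 6 clusters with most receptor peaks held 56 of the 99. Base composition differed little between both kinds of cluster, with a median GC content of 39.0% (37.0 to 43.8) in the 14 clusters without an H3K27me3 peak and 39.5% (38.0 to 46.7) in the 20 with at least 1.

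**Figure D2:**
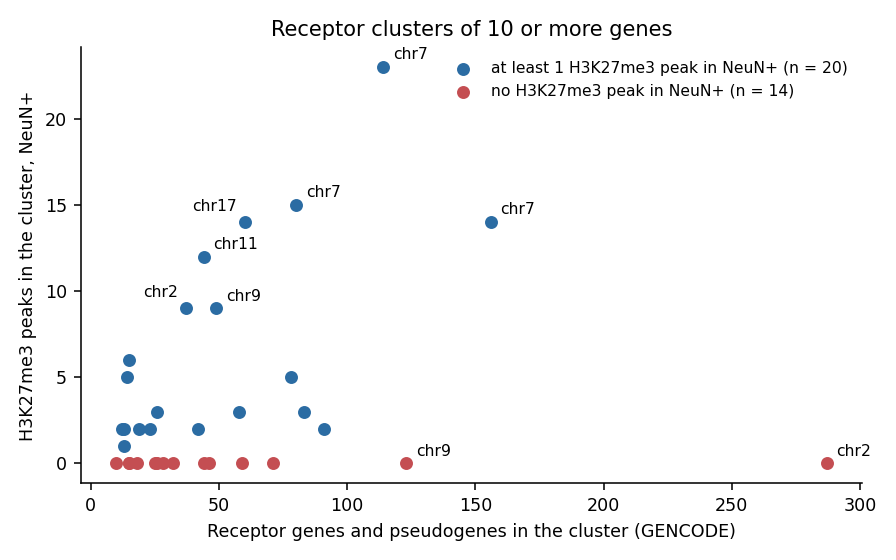
Each point is 1 of the 34 receptor clusters of at least 10 genes, with the number of its receptor genes and pseudogenes on the x axis and the number of H3K27me3 peaks of NeuN+ nuclei inside it on the y axis. Blue points have at least 1 peak (n = 20) and red points none (n = 14). The cluster with most genes, 287 on chromosome 2, lies at 0 peaks, while 44 genes on chromosome 11 hold 12.

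The cluster peaks had few CpG dinucleotides. A cluster peak of H3K27me3 NeuN+ held a median of 1 CpG in 401 bases against 5 in the other peaks of the table, and the observed to expected ratio of CpG was 0.0764 against 0.240. Of the 99, 23 (23.2%) had no CpG at all, as the Vmn2r123 stretch above, against 4.83% of the other peaks. None had 10 or more, a number that 24.8% of the other peaks reached. The GC content was 42.4% against 48.1%. Of the 113 receptor peaks 40 (35.4%) were soft-masked repeat over at least 50% of their length, against 9.48% of the other peaks. Positions at which a read of 75 bases would have another exact match in the assembly made up less than 50% of each of the 223 receptor peaks.

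**Figure D3:**
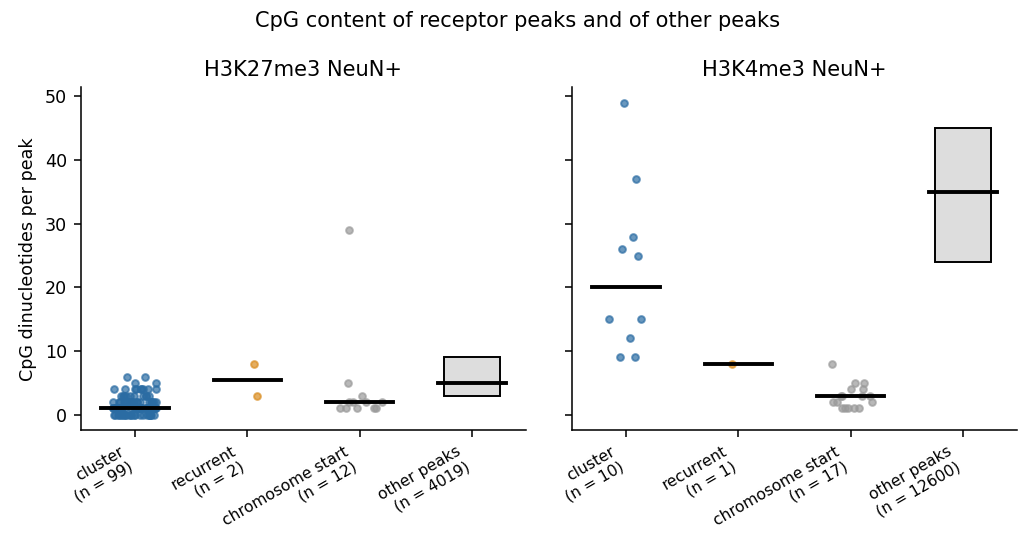
CpG dinucleotides per 401-base peak, on the y axis, for the classes of receptor peaks in H3K27me3 NeuN+ (left) and H3K4me3 NeuN+ (right). Points are peaks, thick lines are medians, and the grey boxes span the quartiles of the peaks without a receptor name. The 99 cluster peaks of H3K27me3 NeuN+ have a median of 1 against 5 in the other peaks, and the 10 of H3K4me3 NeuN+ have 20 against 35.

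Other marks were seldom found beside them. Among the 101 H3K27me3 NeuN+ receptor peaks away from chromosome starts, 2 (1.98%) overlapped a Suz12 NeuN+ peak, both at the recurrent positions, against 186 (4.63%) of the other 4019. Within 5 kb of a Suz12 NeuN+ peak the number was still 2 (1.98%), against 455 (11.3%). An H3K27me3 NeuN- peak lay within 5 kb of 1 (0.990%) against 811 (20.2%), and an H3K4me3 NeuN+ peak within 5 kb of 2 (1.98%) against 504 (12.5%). These shares describe the called peaks and carry no test.

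The 10 H3K4me3 cluster peaks of NeuN+ nuclei were of another kind. All but the Vmn2r87 peak lay within the span of a receptor cluster, but only Or2i1 (Olfr94) had its peak within 1 kb of the receptor start, at 585 bases. The Or2i1 peak (chr17:37197026-37197426) held 49 CpG and had values of 18.0, 11.7 and 16.1 in WT, 20.7, 23.0 and 16.6 in Mutyh-/-, 21.4, 17.4 and 27.7 in Ogg1-/- and 15.8, 12.9 and 29.6 in DKO. Every library had reads there and the genotypes overlapped. The other 9 were annotated to Vmn2r86, Vmn2r87, Or9e1, Or2ad1, Or4k15c, Or6s1, Or4d11 (2 peaks) and Or55b10, at 6080 to 44516 bases from the receptor. The Or9e1 peak lay 38 bases from the annotated non-coding gene Gm12258, and the Or4k15c peak 691 bases from Gm37194.

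Transfer RNA genes lay beside several of these, a property looked for after the values had been seen. Of the 10 peaks 4 (40.0%) lay within 500 bases of a RefSeq transfer RNA gene, against 80 of 12600 other H3K4me3 NeuN+ peaks (0.635%), and 0 of the 99 H3K27me3 NeuN+ cluster peaks did, as 4 of the 4019 others. The Or6s1 peak (chr14:51064959-51065359) contained the whole gene n-TTtgt3, a threonine transfer RNA with the anticodon TGT, which is printed here in capitals because it lies inside a peak named after an odorant receptor 6083 bases away.
Or6s1 (chr14:51065099-51065250): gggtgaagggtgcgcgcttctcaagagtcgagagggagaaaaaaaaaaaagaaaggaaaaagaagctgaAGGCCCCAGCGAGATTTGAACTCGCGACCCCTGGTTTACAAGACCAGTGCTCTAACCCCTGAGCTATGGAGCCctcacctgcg
The Or2ad1 peak (chr13:21160332-21160732) lay 53 bases from the glutamate transfer RNA gene n-TEctc11, and the Or4d11 peaks lay 63 bases from the lysine gene n-TKctt29 and 165 bases from the leucine gene n-TLtaa4. At the first Or4d11 peak (chr19:12005576-12005976) the normalised read counts were 27.01, 18.5 and 15.1 in WT, 7.63, 20.2 and 11.4 in Mutyh-/-, 19.0, 12.3 and 14.6 in Ogg1-/- and 15.8, 10.5 and 12.9 in DKO. Reads were present in every library, with 1 WT library highest and 1 Mutyh-/- library lowest.

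The recurrent position near Vmn1r77 (chr7:12010501-12010938, 30361 to 30398 bases from the receptor) was called with all 3 antibodies in both fractions. It consists of a short tandem unit, and the stretch below marks each copy of the letters TTTAGCCCC in capitals. The other recurrent position, near Vmn2r117 (chr17:23433294-23433957), is shown beside it with CpG in capitals.
Vmn1r77 (chr7:12010638-12010837): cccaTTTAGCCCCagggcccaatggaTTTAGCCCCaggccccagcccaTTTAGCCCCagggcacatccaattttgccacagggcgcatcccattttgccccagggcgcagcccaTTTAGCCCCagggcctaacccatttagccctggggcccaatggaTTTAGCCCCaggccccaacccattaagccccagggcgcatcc
Vmn2r117 (chr17:23433657-23433856): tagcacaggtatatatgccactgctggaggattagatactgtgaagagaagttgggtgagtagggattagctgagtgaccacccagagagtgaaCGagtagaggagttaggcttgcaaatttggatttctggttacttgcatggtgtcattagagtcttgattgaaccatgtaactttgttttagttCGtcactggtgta
Counted on both strands, TTTAGCCCC occurred 7 to 9 times in the Vmn1r77 peak of each table. At least 1 copy was found in 51 of the 22815 peaks (0.224%), and 5 or more copies in 6, which were these same peaks.

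Levels at Vmn1r77 varied widely within a genotype, and in WT NeuN+ nuclei in the same order with each antibody. In NeuN+ nuclei the WT values were 20.8, 1.11 and 12.1 with H3K27me3, 30.9, 1.95 and 15.1 with H3K4me3 and 38.9, 0.988 and 12.1 with Suz12. In all 3 NeuN+ tables WT replicate 1 was thus highest and WT replicate 2 lowest. In Ogg1-/- the values were 37.6, 7.32 and 32.9 with H3K27me3, which was called at a log2 fold change of 1.39 ± 0.675 although it overlapped with WT (limma adjusted p = 0.980), and 30.9, 28.7 and 40.0 with H3K4me3. The Vmn1r77 peak ranked at percentile 97.7 of its table by mean value in H3K27me3 NeuN+, 99.1 in H3K4me3 NeuN-, 95.6 in H3K27me3 NeuN- and 27.6 in H3K4me3 NeuN+. Input libraries were not analysed here, so the part of general read density in these levels was not tested.

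The peaks at the start of chromosome 4 that were annotated to Vmn1r2, a vomeronasal receptor, were repetitive as well. The letters CACTGTG, counted on both strands, occurred 8 to 15 times in each of the 20 Vmn1r2 peaks. Of all 22815 peaks 1393 (6.11%) had at least 1 copy and 36 (0.158%) had 5 or more, and 26 of these 36 were receptor peaks at chromosome starts. A Vmn1r2 peak and a Suz12 NeuN- peak of Or1f19, which was called against WT by an unadjusted rule only, are shown with CACTGTG and CpG in capitals, respectively.
Vmn1r2 (chr4:3083516-3083715): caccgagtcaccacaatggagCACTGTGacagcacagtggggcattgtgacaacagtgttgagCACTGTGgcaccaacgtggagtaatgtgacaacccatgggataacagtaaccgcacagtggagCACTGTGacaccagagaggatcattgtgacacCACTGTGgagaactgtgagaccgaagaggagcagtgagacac
Or1f19 (chr16:3259297-3259496): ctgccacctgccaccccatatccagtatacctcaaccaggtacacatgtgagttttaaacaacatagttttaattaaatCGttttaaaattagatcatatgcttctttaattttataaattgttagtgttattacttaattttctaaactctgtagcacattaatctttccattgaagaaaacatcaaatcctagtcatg

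The peaks at chromosome starts made up most of the receptor peaks in 5 of the 6 tables. They were annotated to 4 genes, with 45 peaks for Or1f19 on chromosome 16, 13 for Vmn1r238 on chromosome 18, and 20 for Vmn1r2 and 25 for Vmn1r3 on chromosome 4. Each gene had such peaks in all 6 tables. The Or1f19 peaks covered chr16:3232407-3283759, at 308639 to 359591 bases from the gene, and the Vmn1r3 peaks lay 39731 to 69018 bases from theirs. Of the 54 positions 24 were called in 2 or more tables. Peaks without a receptor name were found beside them: within 300 kb of a first assembled base lay 73 of all 312 Suz12 NeuN- peaks (23.4%), 24 of them with a receptor name, and 59 of 775 Suz12 NeuN+ peaks (7.61%), 22 with one. In H3K27me3 NeuN+ the share was 38 of 4132 (0.920%) and in H3K4me3 NeuN+ 44 of 12628 (0.348%).

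The brightest receptor peaks of H3K27me3 NeuN+ came from this class. At Vmn1r238 (chr18:3005671-3006071) the normalised read counts were 58.0, 70.9 and 89.6 in WT, 107, 96.2 and 71.9 in Mutyh-/-, 77.3, 112 and 112 in Ogg1-/- and 95.0, 96.0 and 135 in DKO, at percentile 99.6 of the table. The lowest value was in WT and the highest in DKO, and all DKO libraries lay above WT, while WT overlapped with Mutyh-/- and Ogg1-/-. At Vmn1r2 (chr4:3083416-3083816) they were 25.2, 16.6 and 27.6 in WT, 41.6, 14.4 and 35.0 in Mutyh-/-, 52.5, 25.1 and 74.0 in Ogg1-/- and 51.3, 29.1 and 57.0 in DKO. All 3 DKO libraries lay above WT there. For Ogg1-/- the log2 fold change was 1.00 ± 0.492 (SE, n = 3 per genotype; limma adjusted p = 0.980).

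Knockouts were compared with WT within each table by limma on log2(value + 1), across all peaks. A peak was called when p was under 0.05 and the log2 fold change over 0.5 in size, as the study defined its differentially enriched regions. By this unadjusted rule 19 of the 113 receptor peaks of H3K27me3 NeuN+ (16.8%) were called in at least 1 knockout, against 9.32% of all peaks of the table. The called receptor peaks were mostly higher in a knockout, 14 (12.4%) against 3.41% of all peaks, and 5 (4.42%) were lower, against 5.91%. After Benjamini-Hochberg adjustment over the table limma called no receptor peak, and the lowest adjusted p was 0.980. edgeR and DESeq2 likewise gave no adjusted call, and by the unadjusted rule called 14 receptor peaks (12.4%, against 7.45% of all peaks) and 16 (14.2%, against 10.6%).

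These counts moved most when a single WT library was left out. In WT replicate 2 no read was found in 35.4% of the receptor peaks, against 16.2% of all peaks of that library, and in the other 11 libraries the receptor share without a read was 1.77 to 23.0%. Without WT replicate 2 the number of called receptor peaks was 9 (7.96%), close to the 7.99% of all peaks, with 4 higher (3.54%, against 2.98%) and 5 lower. Leaving out any other library gave 13 to 20 called peaks. The share of all peaks called in those fits is not given here, so these numbers alone show no excess at receptors.

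By genotype, Mutyh-/- had 10 called receptor peaks (8.85%, against 3.80% of all peaks), 5 higher and 5 lower, against 1.02% and 2.78% of all peaks. Ogg1-/- had 10 (8.85%, against 3.73%), of which 9 were higher and 1 lower, against 1.52% and 2.20%. DKO had 2 (1.77%, against 3.10%), both higher, against 1.67%. The median log2 fold change over the 113 peaks was 0.19 in Mutyh-/-, 0.38 in Ogg1-/- and 0.32 in DKO, and over all peaks −0.21, −0.11 and −0.01. Without WT replicate 2 the receptor medians were −0.16, 0.07 and 0.15, and those of all peaks −0.27, −0.17 and −0.10. The 3 contrasts share the WT libraries, so the values are given side by side only. Of the receptor peaks 85 (75.2%) had at most 2 CpG. The 934 other peaks with as few had medians of −0.20, −0.02 and −0.01, and 9.31% of them were called.

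**Figure D4:**
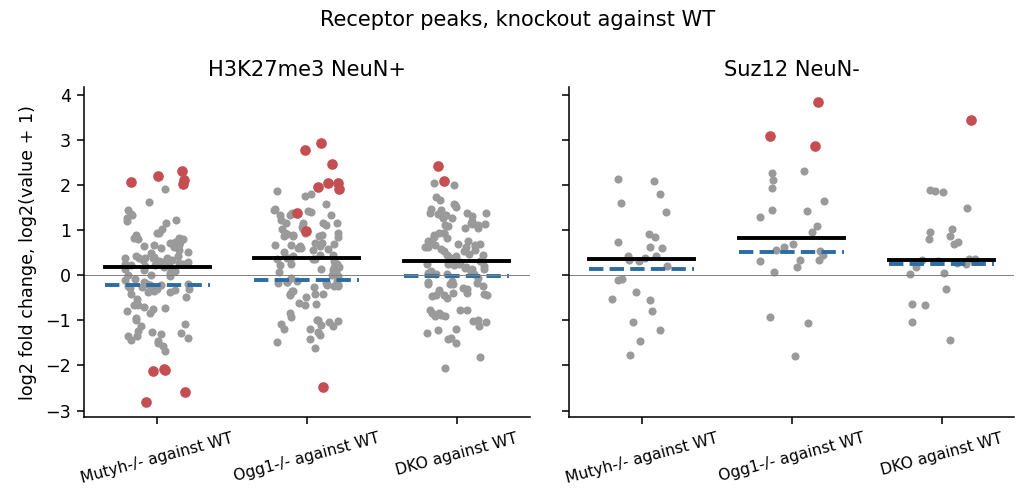
Log2 fold change on the log2(value + 1) scale of each receptor peak, for the 3 knockouts against WT, in H3K27me3 NeuN+ (113 peaks) and Suz12 NeuN- (26 peaks). Red points passed p under 0.05 with a log2 fold change over 0.5 in size and grey points did not. The black line is the median of the receptor peaks and the dashed blue line that of all peaks of the table, in H3K27me3 NeuN+ 0.38 against −0.11 for Ogg1-/-.

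As a share of the summed values of the table, the receptor peaks took 1.96 ± 0.456% in WT, 1.86 ± 0.428% in Mutyh-/-, 2.54 ± 0.349% in Ogg1-/- and 2.17 ± 0.0377% in DKO (SD, n = 3 each). The ranges of WT and Ogg1-/- overlapped.

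Among single peaks, Or12d2, an olfactory receptor of the cluster beside the major histocompatibility complex, had no read in any WT library (chr17:37318275-37318675, sequence above). Its values were 6.09, 0 and 0 in Mutyh-/-, 7.93, 4.18 and 6.17 in Ogg1-/- and 5.46, 4.85 and 3.21 in DKO. Every Ogg1-/- and DKO library thus lay above WT, and 1 Mutyh-/- library did. Against the level of 3 reads over the WT group the peak was at least 5.96-fold higher in Ogg1-/- and at least 4.41-fold higher in DKO (limma adjusted p = 0.980 and 0.998). Such folds, here and below, take the mean of the group with reads as it is and leave out its own counting error. Peaks entered a table only where they had been found in replicates, so a peak without a WT read was there through knockout libraries, and its higher value in a knockout was fixed by that choice and is given as a description.

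At Or7e175, in the olfactory cluster of chromosome 9 (chr9:20139017-20139417), the values were 3.29, 2.21 and 1.72 in WT, 3.04, 7.74 and 5.99 in Mutyh-/-, 12.9, 7.32 and 16.4 in Ogg1-/- and 12.0, 6.79 and 4.81 in DKO. Ogg1-/- and DKO did not overlap with WT. The log2 fold change was 1.92 ± 0.885 in Ogg1-/- (limma adjusted p = 0.980). With few WT reads, the Or7e175 peak may have been in the table through knockout libraries, which would favour the higher direction. Or7e173 in the same cluster (chr9:19989946-19990346) had 0 in the 3 WT libraries and 3.96, 1.05 and 6.17 in Ogg1-/-. It was at least 3.65-fold higher there, although the second value stood for a single read, and this peak too was in the table through knockout libraries.

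Peaks near the vomeronasal receptor Vmn1r68 and the olfactory receptor Or2h15 went the other way. At Vmn1r68 (chr7:10518327-10518727) the values were 9.86, 5.54 and 11.2 in WT, 3.04, 0 and 0 in Mutyh-/-, 3.96, 0 and 0 in Ogg1-/- and 7.65, 4.85 and 2.41 in DKO. Both single knockouts lay below WT, whereas DKO overlapped with it. Each single knockout had reads in a single library, so the peak was in the table through WT or DKO libraries. The log2 fold change was −2.58 ± 1.06 in Mutyh-/- and −2.48 ± 1.06 in Ogg1-/- (limma adjusted p = 0.999 and 0.980).

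At Or2h15 (chr17:38129065-38129465) they were 14.2, 5.54 and 6.03 in WT, 0, 0 and 0.999 in Mutyh-/-, 1.98, 3.14 and 1.03 in Ogg1-/- and 0, 0 and 8.82 in DKO. Here too both single knockouts lay below WT, with −2.82 ± 1.05 in Mutyh-/- (limma adjusted p = 0.999), and a DKO library overlapped. At Vmn2r116, in an intron (chr17:23392276-23392676), WT had 5.48, 5.54 and 0.862 and Mutyh-/- had no read in 3 libraries, at least 3.81-fold lower. The lowest WT value there was 1 read. Without a Mutyh-/- read the Vmn2r116 peak was in the table through other libraries, which fixed its lower direction in Mutyh-/-. At Or2h15 Mutyh-/- held 1 read in all, so the direction was largely fixed there too. Both are given as a description.

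**Figure D5:**
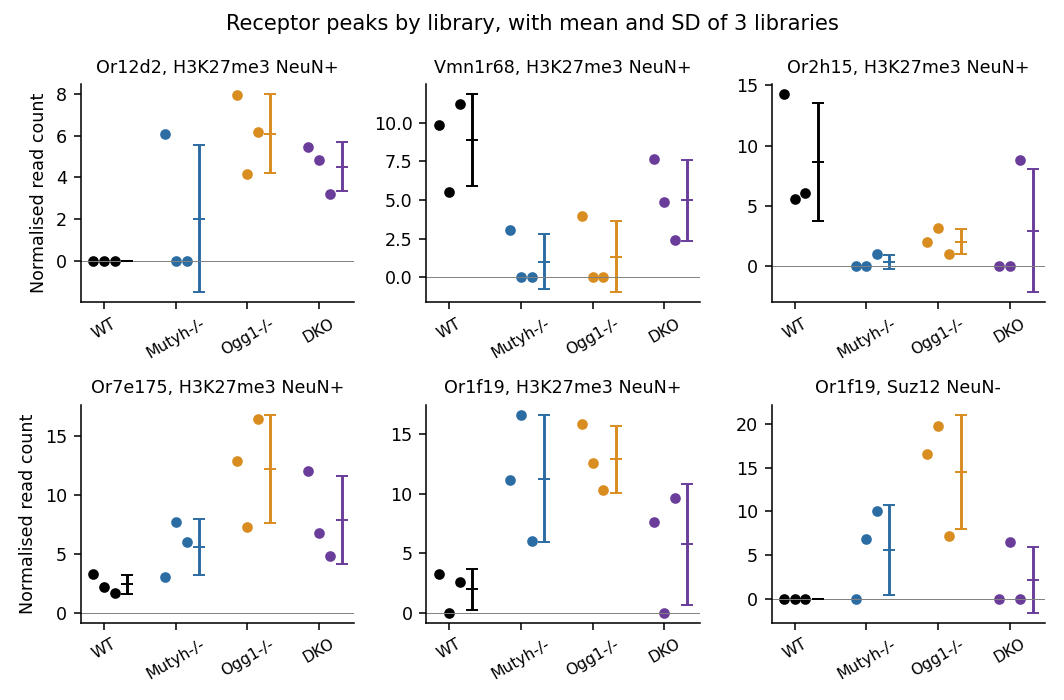
Normalised read count (y axis) of 6 receptor peaks in each library, by genotype (x axis), with the mean and SD of 3 libraries beside the points. Or12d2 has 0 in the 3 WT libraries and 4.18 to 7.93 in Ogg1-/-, Vmn1r68 has 5.54 to 11.2 in WT and 0 to 3.96 in both single knockouts, and the Suz12 NeuN- peak of Or1f19 has 0 in WT and 7.15 to 19.7 in Ogg1-/-.

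Or1f19 gave the lowest p of the family, at peaks far from the gene. At chr16:3240059-3240459, within the chromosome start, H3K27me3 NeuN+ values were 3.29, 0 and 2.59 in WT, 11.2, 16.6 and 5.99 in Mutyh-/-, 15.9, 12.5 and 10.3 in Ogg1-/- and 7.65, 0 and 9.63 in DKO. Both single knockouts lay above WT and DKO did not, with log2 fold changes of 2.20 ± 0.906 and 2.46 ± 0.906 (limma adjusted p = 0.999 and 0.980). WT had few reads at this peak, which may have been in the table through knockout libraries. Such a choice would favour the higher direction. At chr16:3350942-3351342, 241056 bases from the gene, Ogg1-/- had 13.9, 2.09 and 19.5 against 1.10, 0 and 0 in WT (log2 fold change 2.94 ± 1.06, limma adjusted p = 0.980). WT held a single read there, so the peak was in the table through knockout libraries, which largely fixed the direction.

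The non-additive term, DKO minus Ogg1-/- minus Mutyh-/- plus WT, passed the same rule at 4 receptor peaks of H3K27me3 NeuN+ (3.54%, against 3.82% of all peaks). They were Vmn1r68 with 4.29 and the Or1f19 promoter peak with 3.43 on the log2 scale, and the Or1f19 peak at chr16:3240059-3240459 with −3.80 and Vmn2r117 with −2.48. The Or1f19 promoter peak (chr16:3591529-3591929, 469 bases from the start) had 5.48, 4.43 and 3.45 in WT, 4.06, 2.21 and 0 in Mutyh-/-, 0, 3.14 and 1.03 in Ogg1-/- and 12.0, 11.6 and 5.62 in DKO. Ogg1-/- lay below and DKO above the WT libraries.

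In the other tables few receptor peaks were called. In H3K4me3 NeuN+ limma called 0 of 28, against 2.59% of all peaks. Of the same 28 edgeR called 3 and DESeq2 1. The share of all peaks is not given for these 2 methods, so their counts are no result about receptors. In H3K4me3 NeuN- 2 of 21 were called (9.52%, against 6.51%), in H3K27me3 NeuN- 1 of 11 (9.09%, against 6.89%) and in Suz12 NeuN+ 1 of 24 (4.17%, against 9.29%). Suz12 NeuN- had 4 of 26 (15.4%), all higher in a knockout, against 18.3% of all peaks called and 13.1% called higher. None passed after adjustment in limma, edgeR or DESeq2.

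All 4 Suz12 NeuN- calls were Or1f19 peaks at the start of chromosome 16. At chr16:3259197-3259597 (sequence above) the values were 0, 0 and 0 in WT, 0, 6.85 and 10.1 in Mutyh-/-, 16.6, 19.7 and 7.15 in Ogg1-/- and 0, 6.48 and 0 in DKO. Ogg1-/- lay above WT in 3 of 3 libraries and was at least 13.1-fold higher (limma adjusted p = 0.165), and 3 of the 6 libraries of Mutyh-/- and DKO also had no read. At chr16:3257546-3257946 Ogg1-/- had 11.0, 4.48 and 8.59 and WT 0 in 3 libraries, at least 7.25-fold higher. Both of these peaks, without a WT read, were in the table through knockout libraries, which fixed the direction. At chr16:3268718-3269118 Ogg1-/- had 17.5, 12.5 and 7.15 against 0, 4.15 and 0 in WT (log2 fold change 2.88 ± 1.21, limma adjusted p = 0.333). With WT reads in a single library, this peak too was in the table through knockout libraries.

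At chr16:3242964-3243364 DKO had 10.8, 12.0 and 19.6 and WT 0, 0 and 1.37 (log2 fold change 3.46 ± 1.27, limma adjusted p = 0.663). With a single WT read this peak too was in the table through knockout libraries, which largely fixed the direction. The overlapping H3K4me3 NeuN- peak (chr16:3242709-3243109) had 14.8, 11.2 and 11.4 in Ogg1-/- against 0, 2.36 and 3.55 in WT, 2.43 ± 1.11 on the log2 scale (limma adjusted p = 0.999). WT reads were few there as well, so the same choice of peaks may have favoured the higher direction. In Suz12 NeuN- the median over all peaks also lay above WT, at 0.52 in Ogg1-/- against 0.83 for the receptor peaks. With TMM scaling these medians were 0.28 and 0.61.

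The remaining calls were single peaks. Vmn1r3 in Suz12 NeuN+ (chr4:3254376-3254776) had 0, 0 and 1.34 in WT and 9.84, 6.21 and 5.07 in Mutyh-/- (log2 fold change 2.55 ± 1.19, limma adjusted p = 0.912). WT held a single read at this Vmn1r3 peak, so it was in the table through knockout libraries, which largely fixed the direction. Or6b3 in H3K27me3 NeuN- (chr1:92509624-92510024), the only cluster peak outside NeuN+ nuclei, had no read in WT and 1.75, 4.90 and 5.96 in Ogg1-/-, at least 3.82-fold higher, a direction again fixed by how peaks were chosen. In H3K4me3 NeuN- the peak of Vmn1r238 (chr18:3005675-3006075) had 0, 45.7 and 15.4 in WT and 22.8 to 59.0 in the 9 knockout libraries, and was not called. Without WT replicate 2 its log2 fold changes were 3.09, 3.68 and 3.42 in Mutyh-/-, Ogg1-/- and DKO, the only receptor peak with an adjusted p under 0.05 in any of the fits. Its highest WT value was that of the library left out.

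Peaks of the same antibody were compared between the fractions by overlap. Of the H3K27me3 receptor peaks 4 overlapped between NeuN+ and NeuN-, 3.54% of the 113 and 36.4% of the 11, against 6.03% and 14.7% of all peaks. For Suz12 the number was 15 (62.5% of 24 and 57.7% of 26, against 23.0% and 57.1%), and for H3K4me3 7 (25.0% of 28 and 33.3% of 21, against 23.8% and 91.7%). The effect of a knockout was compared between fractions in a joint limma fit of the shared peaks, and no pair passed after adjustment. The study collected both fractions when sorting nuclei, but the fit treated all libraries as independent. Its SE and p-values thus leave out any pairing of the fractions by pool. An unadjusted p under 0.05 was found at 1 of the 15 receptor pairs of Suz12, against 13 of all 172 Suz12 pairs in Ogg1-/- and 7 in DKO. At this pair, of Or1f19, the log2 fold change was lower in NeuN+ by 4.16 ± 1.83 in Ogg1-/- (limma adjusted p = 0.532) and by 4.27 ± 1.83 in DKO (limma adjusted p = 0.695). No receptor pair of H3K4me3 or H3K27me3 reached it.

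The genes that act with the receptors were counted in the same tables. Of 46 genes of olfactory transduction and receptor choice, 26 had H3K4me3 peaks in NeuN+ nuclei, 31 peaks in all, among them those of Adcy3 and Gnal, the adenylate cyclase and G protein of odorant signalling, Lhx2 and Ldb1, which bind receptor enhancers, and Kdm1a, a histone demethylase of receptor choice. Promoters took 29 of the 31, and limma called none, against 2.59% of all peaks. In H3K27me3 NeuN+ 5 genes had 18 peaks, Ebf1, Ebf2, Ebf3, Neurog1 and Ric8b, the first 4 of which encode transcription factors. Of these 18 peaks 1 was called, against 9.32% of all peaks, near Ebf3, with 9.19 ± 1.25 in WT and 1.87 ± 3.24 in DKO (limma adjusted p = 0.998). In H3K4me3 NeuN- 11 genes had 11 peaks, of which 1 was called, against 6.51% of all peaks, at Gnb1, a G protein subunit, with 18.7 ± 5.96 in WT and 8.84 ± 8.60 in DKO (limma adjusted p = 0.999). H3K27me3 NeuN- had 13 peaks of 7 genes, Suz12 NeuN+ 4 of 3 and Suz12 NeuN- 1. None was called by limma, against 6.89%, 9.29% and 18.3% of all peaks, respectively.

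Of the other chemoreceptor families, H3K27me3 NeuN+ had 6 peaks of 4 genes, the formyl peptide receptors Fpr2, Fpr3 and Fpr-rs3 and the taste receptor Tas1r2. Limma called none of them, against 9.32% of all peaks. An intronic Fpr2 peak of H3K4me3 NeuN+ was called higher in Ogg1-/- and DKO, at 18.2 ± 9.55 and 18.3 ± 8.31 against 6.18 ± 1.76 in WT (limma adjusted p = 1.00 for both). Fpr2 also had 1 peak in H3K4me3 NeuN- and Tas1r2 1 in H3K27me3 NeuN-. The Suz12 tables had none.

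The fractions were checked by promoter peaks of marker genes. H3K4me3 marked the promoters of 8 of 10 neuronal markers in NeuN+ nuclei and 0 of 10 in NeuN-. Of 9 oligodendrocyte markers 0 were marked in NeuN+ and 1, Olig1, in NeuN-, and 5 of the 9 had H3K27me3 promoter peaks in NeuN+ against 1, Pdgfra, in NeuN-. With H3K4me3, astrocyte markers had 1 of 5 (Slc1a3) in NeuN+ and 0 in NeuN-, and markers of microglia and vessels had none in either. H3K27me3 promoter peaks were found in both fractions at the neuronal markers Gad1 and Gad2 and at the vessel marker Flt1, and in neither at astrocyte or microglia markers. Of 6 markers of olfactory sensory neurons, Adcy3 and Gnal had H3K4me3 promoter peaks in NeuN+ and Gnal in NeuN-, where Gnal also had an H3K27me3 promoter peak.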

How the data were processed

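Single-end ChIP-seq reads were aligned by the authors to GRCm38/mm10 with Bowtie2 2.3.5.1, peaks were called with epic2, an implementation of SICER, and kept when found in at least 2 of 3 replicates, and DiffBind 3.10.1, edgeR 3.42.4 and ChIPseeker 1.36 gave the tables. Treatment of duplicates and input is not given in the sources used here. The deposited values are signal, reads per peak divided by a factor for the library, since 100% of values were whole multiples of a library step (tolerance 0.01). Tables were normalised separately. Values were tested with limma 3.58.1 (trend, robust, log2(value + 1), 12 libraries per table, genotype as the only term), and the code was tested on simulated data. In H3K27me3 and Suz12 of both fractions the prior degrees of freedom reached infinity. At peaks where they did, the SE is that of peaks at a similar level, whatever the spread at the peak itself. On the recovered reads edgeR 4.0.16 called 308 and DESeq2 1.42.0 439 of the 4132 H3K27me3 NeuN+ peaks. Members and gene lists were chosen with earlier results of these data known, and the position classes, the motifs, the transfer RNA distance and the CpG limit after the values were seen. Peaks were named where called with groups that did not overlap, brightest, shared between tables or within 1 kb of a receptor start, and other peaks were named after their values were seen. Sequence features came from the GRCm38 assembly with GENCODE and RefSeq annotation (pysam 0.24.0). Folds against 3 reads cover counting error in the group without a read only. The counting error of the other group and the spread between libraries are left out, so they are no lower bounds of an effect. Pairing by replicate number was accepted where the deviations of all 3 same-numbered pairs correlated at over 0.1, which was met only in Suz12 NeuN+ between Mutyh-/- and WT (0.388, 0.186 and 0.119).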

Additional observations from a re-analysis of the deposited data

How the results depend on the processing

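Few reads per peak, a median of 4 per library at H3K27me3 NeuN+ cluster peaks, limit what the genotype comparison can show, and no receptor peak passed adjustment except Vmn1r238 without WT replicate 2. The 22 pairs of a called peak and a knockout whose libraries did not overlap with WT kept their direction in every alternative that gave a value. Since the pairs were chosen for groups that did not overlap, the 12 fits without a library could not reverse it, and the kept direction is no support. An unadjusted p under 0.05 was found in 12 to 20 alternatives. The numbers of receptor peaks called in a knockout or for the non-additive term are given here without the share of all peaks called. They show only how far the counts move with the setting, and are no result about receptors. Settings that leave out peaks also test fewer of them. H3K27me3 NeuN+ had 19, and 12 without the weakest peaks (lowest 25% by mean value) and 11 without repeat peaks, which made up 40 of its 113 receptor peaks. H3K4me3 NeuN+ had 0, but 3 without the robust option, 3 with edgeR, 1 with DESeq2 and 2 with the replicate block. H3K4me3 NeuN- had 2, but 0 without the weakest peaks, 4 without the robust option, 4 with the block and 0 without repeats. H3K27me3 NeuN- had 1, but 0 without the weakest peaks, 2 with TMM and 2 with the block. Suz12 NeuN+ had 1, but 2 with a pseudocount of 0.5, 0 without the weakest peaks, 2 with the replicate block, which follows the pairing there, and 0 without repeats. With the block H3K27me3 NeuN+ had 22 and Suz12 NeuN- 4. Leaving out 1 library gave 9 to 20 in H3K27me3 NeuN+, 0 to 2 in H3K27me3 NeuN-, 0 to 2 in H3K4me3 NeuN+, 0 to 5 in H3K4me3 NeuN-, 0 to 4 in Suz12 NeuN+ and 3 to 6 in Suz12 NeuN-. The non-additive term gave 4 in H3K27me3 NeuN+, and 9 with DESeq2 and 2 without repeats. It gave 0 in H3K4me3 NeuN+ and 1 with the block, and 0 in Suz12 NeuN+ and 1 each with TMM, DESeq2 and the block. In H3K4me3 NeuN- it gave 2, but 0 without the weakest peaks, 1 with TMM, 0 with edgeR and 1 with DESeq2, and in Suz12 NeuN- 1, but 2 with edgeR and 2 with DESeq2. Leaving out 1 library gave 4 to 9 in H3K27me3 NeuN+, 0 in H3K27me3 NeuN-, 0 to 1 in H3K4me3 NeuN+, 1 to 4 in H3K4me3 NeuN-, 0 to 1 in Suz12 NeuN+ and 1 to 2 in Suz12 NeuN-. Counting peaks within 10 kb of the named receptor left 65 in H3K27me3 NeuN+, 4 in H3K4me3 NeuN+ and 1 in each other table, and counting all peaks inside a receptor cluster gave 189 and 197, 50 in Suz12 NeuN+, 63 in H3K4me3 NeuN-, 26 in H3K27me3 NeuN- and 65 in Suz12 NeuN-. The cause of these shifts was not tested, beyond the fewer peaks or libraries that some settings leave.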
